A study of Mus musculus with 4 samples.

Results

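The genes described here encode the machinery that fuses secretory granules with the cell surface: SNARE proteins and their binding partners, synaptotagmins, complexins and the exocyst. A probe set (the group of array probes that reads 1 gene) belonged to them when the platform annotation gave it a single symbol beginning with Stx, Stxbp, Vamp, Snap, Syt, Sytl, Cplx or Exoc directly followed by a digit. This gave 71 probe sets for 69 of 19938 genes. The rule does not use the measured values. It takes in Snap91, a clathrin assembly protein that is no SNARE, which is given apart. Another 2 probe sets of these families were annotated to several genes and were left out, so Vamp2 was not analysed here.

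Affymetrix Mouse Gene 1.0ST arrays measured the RNA of cells cut by laser from stomach sections of adult mice of C57BL/6 background. The 4 groups were zymogenic (chief) cells of MIST1 knockout mice, zymogenic cells of wild-type mice, mucous neck cells of MIST1 knockout mice and mucous neck cells of wild-type mice, with 1 array each. MIST1, encoded by Bhlha15, is a transcription factor of secretory cells, and the comparisons ask what its loss alters in each cell type and how the cell types differ. RNA of many dissections and several animals was pooled to about 100 ng for each array. The design text names 5 Mist1-/- and 4 wild-type mice with 2 caps each, and which of them entered each pool was not stated in the labels. With a single pooled array in each group there is no replicate spread. Every difference below is therefore a log2 difference between 2 arrays with no replicate check and no p-value. In pooled material, fewer cells of a type and less RNA in each cell cannot be told apart.

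A SNARE complex forms when a VAMP on the granule winds together with a syntaxin and a SNAP protein on the target membrane. Sec1/Munc18 proteins, named Stxbp in mice, hold and template syntaxins, while other Stxbp proteins compete for the same contacts. Some synaptotagmins, though not all, sense calcium. Complexins clamp half-assembled complexes, synaptotagmin-like proteins bind Rab27 on granules, and the exocyst tethers vesicles before fusion. In the acinar cells of the mouse pancreas, VAMP8 is the chief VAMP of zymogen granules, and zymogenic cells of the stomach release pepsinogen from similar granules. Neck cells release mucin.

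Values are intensities on a linear scale, and a gene counted as detectable in a comparison when at least 1 of the arrays compared read 43.7 or more, the median over all probe sets with 1 gene. That level is a rule of size, not a measured background. Array medians were close, at 39.6 in MIST1-null zymogenic, 40.9 in wild-type zymogenic, 37.9 in MIST1-null neck and 39.3 in wild-type neck cells. Bhlha15 read 22.0 in MIST1-null and 149.8 in wild-type zymogenic cells, and 20.2 in MIST1-null and 59.7 in wild-type neck cells, so the labels and the targeted gene ran the same way. The neck marker Muc6 read 20.7 in MIST1-null and 26.7 in wild-type zymogenic cells, against 2980 in MIST1-null and 2511 in wild-type neck cells. Of 6 neck markers 5 were lower on the zymogenic arrays in both genotypes, and Aqp5 was higher, by 0.56 in MIST1-null and 0.54 in wild-type mice. The zymogenic marker Chia1 read 9022 in MIST1-null and 8209 in wild-type zymogenic cells, against 1494 in MIST1-null and 1806 in wild-type neck cells. Of the other zymogenic markers Cblif was higher in zymogenic cells by 1.25 in MIST1-null and 1.04 in wild-type mice, while Pgc was nearly level, at 0.29 in MIST1-null and 0.20 in wild-type mice, as was Clps in wild-type mice, at 0.20, beside 0.50 in MIST1-null mice. Pga5 went against its label, with 20.4 in MIST1-null and 31.0 in wild-type zymogenic cells, against 1884 in MIST1-null and 1350 in wild-type neck cells. Lipf and Cym did not reach 43.7 on any array.

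Of the 69 genes, 31 were at or above the detection level on all 4 arrays, 24 on 1 to 3 arrays and 14 on none. So 55 of 69 reached it on some array, beside 12935 of 19938 over all genes. The general fusion proteins made up most of the 31. These held 4 of 6 plasma membrane syntaxins, 6 of 8 syntaxins of inner membranes, 4 of 6 VAMPs, 3 of 4 SNAP proteins and 7 of 9 exocyst subunits. Snap91, the clathrin protein, read 46.7 in MIST1-null and 54.0 in wild-type zymogenic cells, and 45.7 in MIST1-null and 47.4 in wild-type neck cells. Of the 17 synaptotagmins, Syt8 and Syt13 reached the level on all arrays, 7 on some arrays and 8 on none. Those 8 were Syt1, the calcium sensor of fast transmitter release, Syt4, Syt6, Syt10, Syt11, Syt14, Syt16 and Syt17. The retinal complexins Cplx3 and Cplx4 were under the level on all arrays too, as were Vamp1, Stxbp5l, Sytl3 and Exoc3l. None of these 14 genes entered a comparison. Syt1 read 33.2 in MIST1-null and 38.2 in wild-type zymogenic cells, and 27.7 in MIST1-null and 43.7 in wild-type neck cells, the last under the level before rounding.

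**Figure D1:**
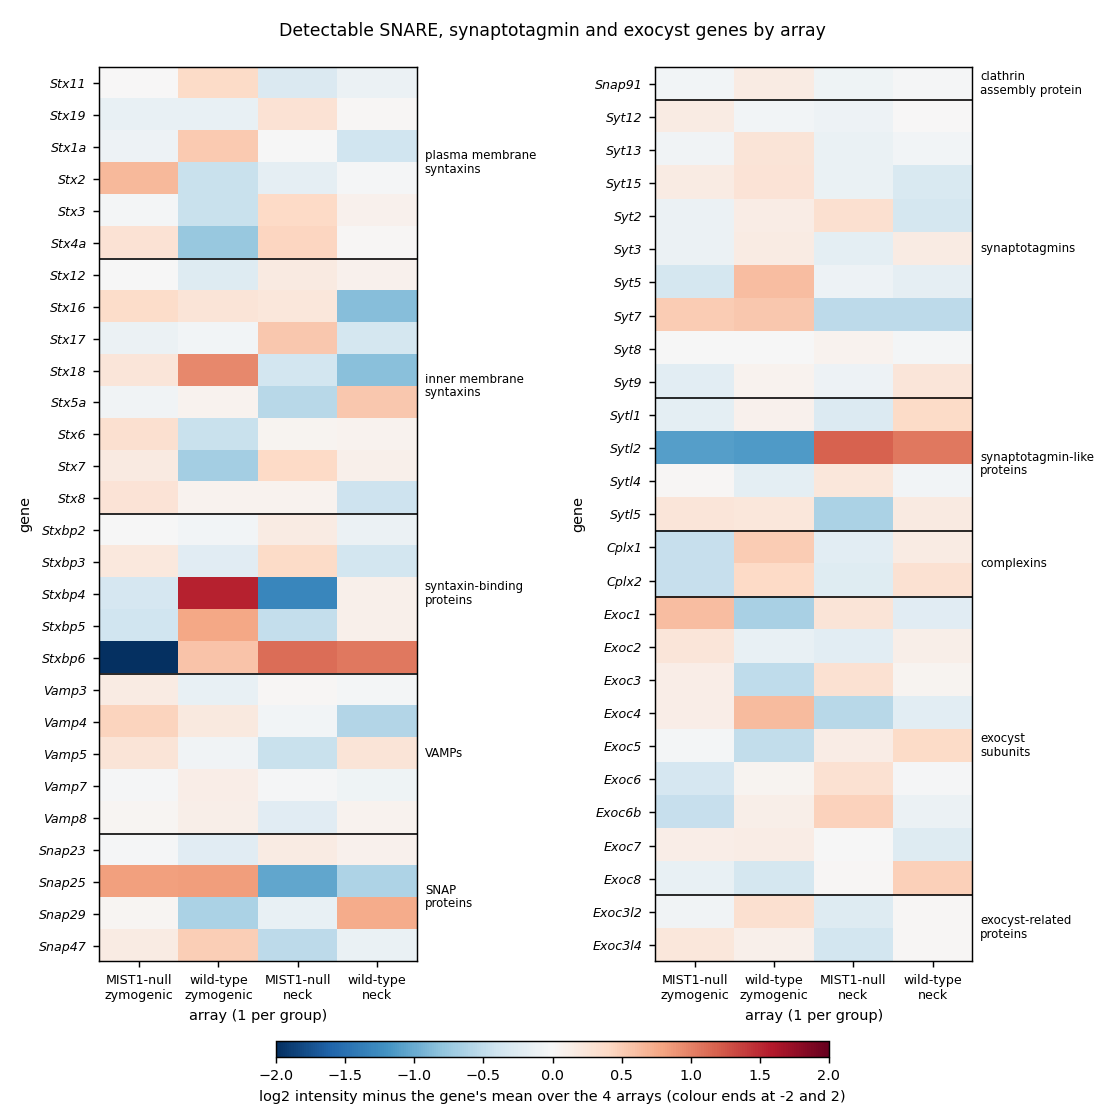
Log2 intensity of the 55 genes detectable in at least 1 comparison, each centred on its own mean over the 4 arrays, with genes in rows grouped by role and arrays in columns. Red is above and blue below the gene's mean, and the strongest colours lie in Stxbp6, Stxbp4, Sytl2 and Snap25.

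Vamp8, Snap23 and Stxbp2 differed little over the 4 arrays, unlike the plasma membrane syntaxins Stx3 and Stx4a described further on. Vamp8 read 803 in MIST1-null and 848 in wild-type zymogenic cells, and 673 in MIST1-null and 825 in wild-type neck cells. Snap23, the SNAP protein of most non-neuronal cells, read 581 in MIST1-null and 505 in wild-type zymogenic cells, and 663 in MIST1-null and 629 in wild-type neck cells. Stxbp2 (Munc18-2), the partner of apical syntaxins in epithelia, read 137 in MIST1-null and 133 in wild-type zymogenic cells, and 155 in MIST1-null and 128 in wild-type neck cells. For each of these genes the highest and lowest arrays lay within 0.5 on the log2 scale. In all, 16 of the 55 detectable genes stayed within that range, or 29.1%, against 25.6% of the 12935 detectable genes on the arrays, a similar share. They included Vamp3, a VAMP of recycling endosomes, with 122 in MIST1-null and 98.3 in wild-type zymogenic cells and 111 in MIST1-null and 106 in wild-type neck cells. Others were Vamp7, a VAMP of late endosomes and lysosomes (166 to 192), Stx12 of early endosomes (216 to 292) and Stx19 (180 to 244). The median distance between the highest and lowest array was 0.80 over the 55 genes and 0.73 over all detectable genes.

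**Figure D2:**
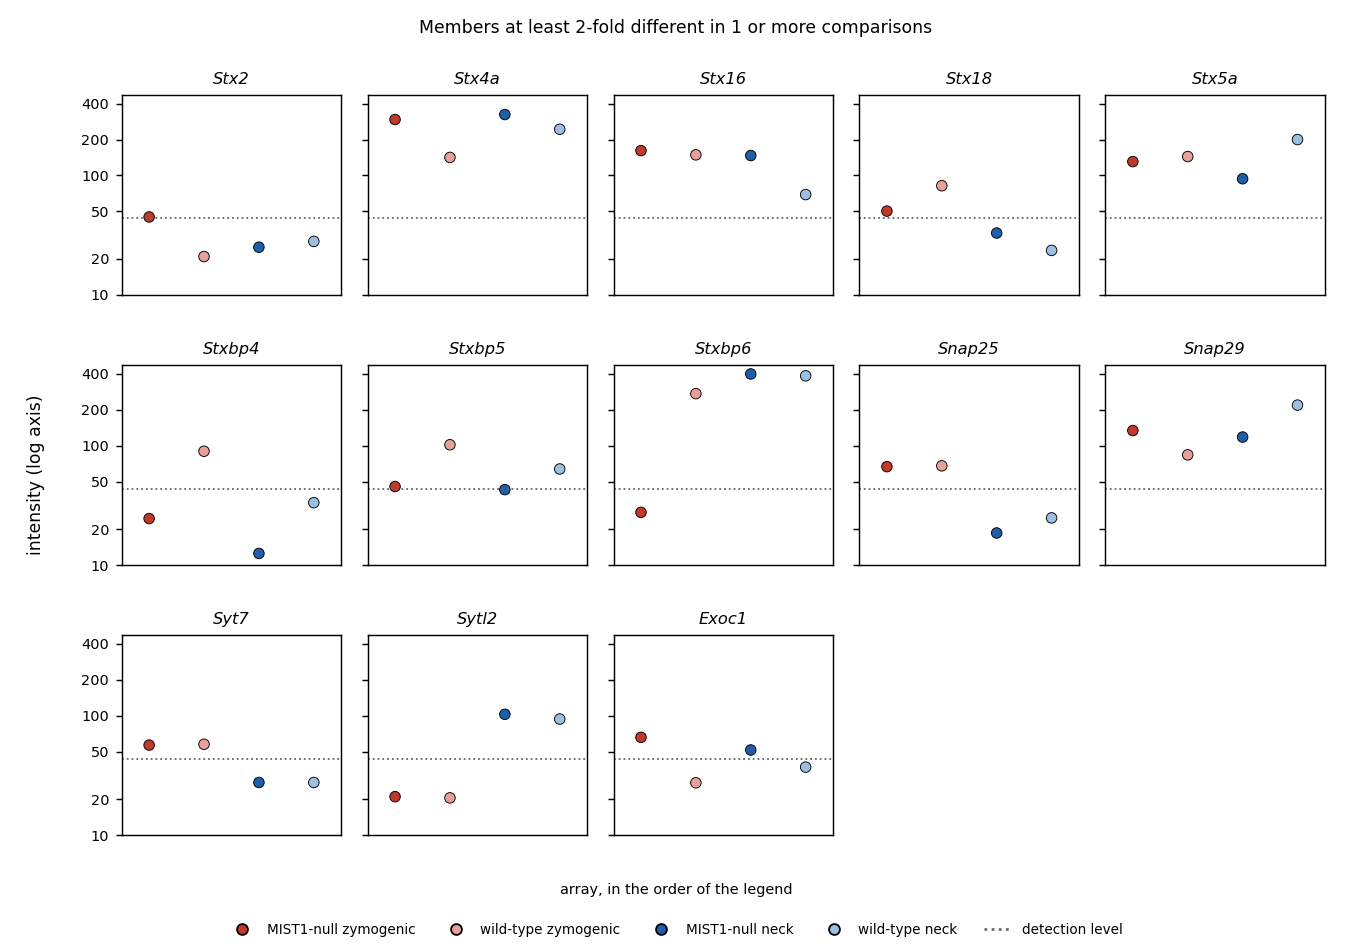
Intensity on a log axis of the 13 genes that were detectable and at least 2-fold different in 1 or more comparisons, with 1 point for each array in the order MIST1-null zymogenic, wild-type zymogenic, MIST1-null neck and wild-type neck. The dotted line is the detection level of 43.7, and Stxbp6 lies under it only on the MIST1-null zymogenic array.

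Zymogenic cells without MIST1 gave lower readings of 3 syntaxin-binding proteins, Stxbp6, Stxbp4 and Stxbp5, and higher readings of the plasma membrane syntaxins Stx2 and Stx4a and the tether subunit Exoc1. Stxbp6 (amisyn), which carries a VAMP-like coil and binds syntaxin and SNAP proteins, read 27.6 in MIST1-null and 272 in wild-type zymogenic cells. It read 398 in MIST1-null and 383 in wild-type neck cells, so the MIST1-null zymogenic array alone was low. The log2 difference in zymogenic cells was -3.30, and 7 of 11826 detectable genes had one as low. The MIST1-null value lies under the detection level. Taken up to that level, a choice made after the data were seen, the difference was -2.64, and with a pseudocount of 32 added to every intensity it was -2.35.

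Stxbp5 (tomosyn), which inhibits fusion by taking the VAMP's place, read 45.4 in MIST1-null and 102 in wild-type zymogenic cells, a difference of -1.16. Its neck values were 42.8 in MIST1-null and 63.7 in wild-type cells, lower in the same direction by -0.57. Stxbp4 (synip), known to bind syntaxin 4, read 24.5 in MIST1-null and 89.7 in wild-type zymogenic cells, a difference of -1.87. In neck cells it was under the detection level on both arrays, at 12.5 in MIST1-null and 33.3 in wild-type cells. A second Stxbp4 probe set read 29.3 in MIST1-null and 28.1 in wild-type zymogenic cells, so the probe sets of this gene disagreed. Averaged over both, the difference was -0.91. The Munc18 proteins went otherwise: Stxbp2 differed by 0.04 and Stxbp3 (Munc18c), the partner of syntaxin 4, by 0.44, with 278 in MIST1-null and 205 in wild-type zymogenic cells. These are the only other detectable genes of the group. The 5 detectable syntaxin-binding genes had a median of -1.16.

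The syntaxins of the plasma membrane had a median of 0.20 over 6 genes, 3 of them higher and 3 lower. Stx4a, syntaxin 4, the basolateral syntaxin of many epithelia, read 294 in MIST1-null and 142 in wild-type zymogenic cells, a difference of 1.06. In neck cells it read 324 in MIST1-null and 244 in wild-type cells, so of the 4 arrays the lowest reading came from wild-type zymogenic cells. Stx2, known from the apical membrane of acinar cells in the rodent pancreas, read 45.0 in MIST1-null and 21.0 in wild-type zymogenic cells, a difference of 1.10 that was 0.04 once low values were taken up to the detection level. It read 25.1 in MIST1-null and 28.1 in wild-type neck cells. Stx3, the apical syntaxin, differed by 0.41, with 78.6 in MIST1-null and 59.2 in wild-type zymogenic cells, and read 106 in MIST1-null and 85.8 in wild-type neck cells. Stx1a, the syntaxin of neurons and endocrine cells, differed by -0.63, with 56.0 in MIST1-null and 86.6 in wild-type cells.

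Among tethers, Exoc1 read 65.8 in MIST1-null and 27.4 in wild-type zymogenic cells, a difference of 1.26, and 0.59 with low values at the detection level. It read 51.6 in MIST1-null and 37.1 in wild-type neck cells. The 9 exocyst subunits had a median of 0.18, with 5 higher and 4 lower. Exoc3 differed by 0.64, with 52.0 in MIST1-null and 33.3 in wild-type zymogenic cells, and 58.0 in MIST1-null and 49.1 in wild-type neck cells. Exoc5 differed by 0.45, with 75.8 in MIST1-null and 55.4 in wild-type zymogenic cells, and 86.6 in MIST1-null and 102 in wild-type neck cells. Exoc4 differed by -0.51, with 72.3 in MIST1-null and 103 in wild-type zymogenic cells, and 45.3 in MIST1-null and 57.4 in wild-type neck cells. Exoc6b, an alternative to Exoc6, differed by -0.58. The subunits of the complex had no common direction. Exoc2 read 119 in MIST1-null and 91.2 in wild-type zymogenic cells, and 86.9 in MIST1-null and 110 in wild-type neck cells. Exoc6 read 48.7 in MIST1-null and 64.1 in wild-type zymogenic cells, and 76.3 in MIST1-null and 60.6 in wild-type neck cells. These 2 subunits were turned in opposite directions in both cell types. Exoc7 read 65.9 in MIST1-null and 66.9 in wild-type zymogenic cells, and 60.3 in MIST1-null and 50.1 in wild-type neck cells. Exoc8 read 96.8 in MIST1-null and 85.3 in wild-type zymogenic cells, and 110 in MIST1-null and 151 in wild-type neck cells. Between the zymogenic arrays Exoc7 differed by -0.02 and Exoc8 by 0.18.

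The 2 detectable complexins were lower in MIST1-null zymogenic cells, under the detection level there. Cplx1 read 26.7 in MIST1-null and 52.5 in wild-type zymogenic cells and Cplx2 read 32.2 in MIST1-null and 58.5 in wild-type zymogenic cells, with differences of -0.97 and -0.86. In neck cells Cplx1 read 31.7 in MIST1-null and 41.3 in wild-type cells, and Cplx2 37.4 in MIST1-null and 54.8 in wild-type cells. Synaptotagmins had a median of -0.10 over 7 detectable genes. Of these 7, 6 were lower and 1 was higher. None was past 2-fold, and several differences were close to 0, such as Syt8 at -0.01. Syt5 was farthest from 0, at -0.96. Syt7, a slow calcium sensor of granule release, was alike at 56.7 in MIST1-null and 57.6 in wild-type cells. The VAMPs lay between -0.16 for Vamp7 and 0.33 for Vamp5. Among inner membrane syntaxins Stx7 of late endosomes differed by 0.85, with 174 in MIST1-null and 96.4 in wild-type zymogenic cells, beside 203 in MIST1-null and 164 in wild-type neck cells, and Stx6 of the trans-Golgi by 0.77.

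In all, 3 of 52 detectable genes were at least 2-fold higher in MIST1-null zymogenic cells, where 5.15% of all detectable genes were. Another 3 were at least 2-fold lower, where 5.23% of all detectable genes were. The 6 genes make 11.5% of the 52, against 10.4% of all 11826 detectable genes, a share near the background. The median was -0.01, against 0.04 over all detectable genes. The number of genes past 2-fold therefore does not set the fusion machinery apart in this comparison. Markers of other cell types differed as well. Of 12 detectable markers of parietal cells, 11 read higher without MIST1 in zymogenic cells, with a median of 0.89 and summed intensities of 9058 in MIST1-null and 5158 in wild-type cells. All 5 detectable neck markers were lower there, with a median of -0.56, among them Tff2 at 277 in MIST1-null and 1320 in wild-type zymogenic cells. The part of these cells in the values of Stxbp6, Stx4a and the others was not tested.

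MIST1 is known to bind E-box sequences, so the windows of 250 bases before to 50 bases after the start of each gene were read from RefSeq (GRCm38.p6) for the E-boxes CATATG and CAGCTG. Each equals its own reverse complement, so both strands are covered. Windows were at hand for 57 of the 69 genes. CATATG was present in 1 of them (1.75%), Stx19, against 3.28% of 15614 measured genes with a window. CAGCTG was present in 16 (28.1%), against 18.4%. Of the 6 genes past 2-fold by genotype in zymogenic cells, 2 held CAGCTG, Stx4a and Stxbp5, and none held CATATG. A match is a run of letters and not a measured site. The window of Stxbp6, the gene with the largest difference, is shown, and those of Stxbp5 and Stx4a because they are the 2 of the 6 that hold CAGCTG. Those of Stxbp4, Stx2 and Exoc1 hold neither E-box and are not shown. Each reads along the gene's strand, with the start base and any of these E-boxes in capitals. They lie at chr12:45074434-45074733 (minus strand) for Stxbp6, chr10:9900991-9901290 (minus strand) for Stxbp5 and chr7:127841558-127841857 (plus strand) for Stx4a.
Stxbp6: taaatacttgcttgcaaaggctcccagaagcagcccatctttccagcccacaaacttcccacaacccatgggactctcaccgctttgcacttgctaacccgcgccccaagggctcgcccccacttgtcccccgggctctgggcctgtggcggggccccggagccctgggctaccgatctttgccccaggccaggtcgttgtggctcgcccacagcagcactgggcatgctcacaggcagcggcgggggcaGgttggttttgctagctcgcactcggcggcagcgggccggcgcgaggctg
Stxbp5: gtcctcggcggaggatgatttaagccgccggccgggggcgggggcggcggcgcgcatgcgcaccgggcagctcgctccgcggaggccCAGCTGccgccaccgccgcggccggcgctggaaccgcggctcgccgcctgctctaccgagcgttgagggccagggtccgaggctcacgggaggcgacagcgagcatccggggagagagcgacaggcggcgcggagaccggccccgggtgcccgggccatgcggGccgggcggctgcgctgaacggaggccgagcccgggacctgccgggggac
Stx4a: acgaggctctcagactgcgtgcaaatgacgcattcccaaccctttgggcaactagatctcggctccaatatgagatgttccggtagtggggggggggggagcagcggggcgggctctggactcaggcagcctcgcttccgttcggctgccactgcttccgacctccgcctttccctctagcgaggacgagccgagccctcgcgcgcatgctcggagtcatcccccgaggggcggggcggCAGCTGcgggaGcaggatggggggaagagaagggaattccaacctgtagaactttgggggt
The E-box of Stxbp5 begins at position -163 and that of Stx4a at position -11 relative to the start, and the Stxbp6 window holds neither.

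Between the genotypes in neck cells, Stx16 and Stx5a, both syntaxins of the Golgi, passed 2-fold in opposite directions, and none of the other detectable genes of these families did. The median size of the difference was 0.34 in neck cells, beside 0.32 between the genotypes in zymogenic cells. Over all detectable genes the median size was 0.28 in neck and 0.39 in zymogenic cells. Stx16, which works in transport from endosomes to the trans-Golgi, read 147 in MIST1-null and 69.2 in wild-type neck cells, a difference of 1.09. Its zymogenic values were 162 in MIST1-null and 149 in wild-type cells, so the wild-type neck array alone was low. Stx5a, the syntaxin of transport between ER and Golgi, went the other way by -1.09, with 93.9 in MIST1-null and 200 in wild-type neck cells. Its zymogenic values of 131 in MIST1-null and 144 in wild-type cells lay between them. Stx17, known from autophagosomes, differed by 0.90, with 195 in MIST1-null and 105 in wild-type neck cells, beside 123 in MIST1-null and 129 in wild-type zymogenic cells. Its autophagosome partner Snap29 differed by -0.89, with 118 in MIST1-null and 218 in wild-type neck cells.

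Among 44 detectable genes, Stx16 was the 1 gene at least 2-fold higher in MIST1-null neck cells, where 1.89% of all detectable genes were. Stx5a was the 1 gene lower by as much, where 2.40% were. Together they make 4.55%, against 4.29% of 10966 genes, again near the background. All 4 detectable plasma membrane syntaxins were higher in MIST1-null neck cells, but by small amounts, from 0.27 for Stx19 to 0.41 for Stx4a. Stxbp3 differed by 0.76, with 313 in MIST1-null and 184 in wild-type neck cells. Sytl5 differed by -0.80 and its second probe set by -0.67. The exocyst subunits lay between -0.45 for Exoc8 and 0.58 for Exoc6b, with a median of 0.24. The median over all 44 genes was 0.08, against 0.00 over all detectable genes. Endocrine markers were lower in MIST1-null neck cells for 5 of 7 detectable genes, with summed intensities of 4136 in MIST1-null and 6246 in wild-type cells. Fibroblast and smooth muscle markers were lower there for 10 of 10 detectable genes, with a median of -0.71 and summed intensities of 513 in MIST1-null and 756 in wild-type cells. The part of these cells in the values was not tested.

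**Figure D3:**
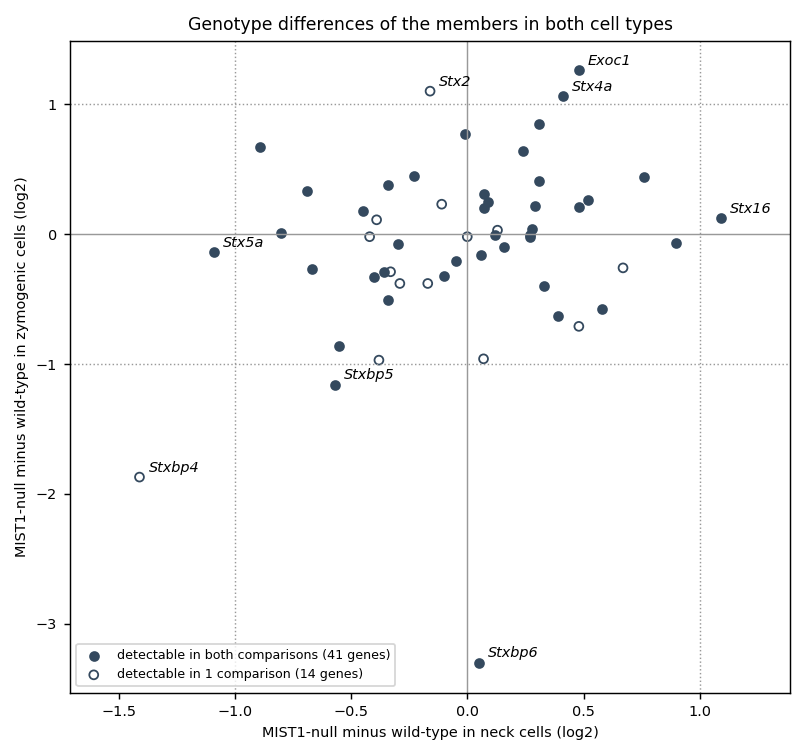
MIST1-null minus wild-type log2 difference of each gene in neck cells (x axis) and in zymogenic cells (y axis), with filled points for the 41 genes detectable in both comparisons and open points for those detectable in 1. Dotted lines mark 2-fold, and Stxbp6 stands alone at the bottom with a neck difference of 0.05.

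None of the genes passed 2-fold by genotype in both cell types. Both differences had the same sign for 24 of the 41 genes detectable in both pairs, or 58.5%, against 55.3% of 9857 genes. The pairs share no array. Pearson's r between them was 0.16 across these 41 genes and 0.17 across all 9857, given as a description, since the genes of an array share its RNA and scaling. For Stxbp6 the genotype difference in zymogenic cells minus that in neck cells was -3.35. For Stx4a both were above 0, at 1.06 in zymogenic and 0.41 in neck cells.

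Between the cell types of wild-type mice, the synaptotagmin-like gene Sytl2 was low in zymogenic cells and a few SNAREs were high. Sytl2 (Slp2-a), a Rab27 partner known in mice from mucus granules of the stomach surface, read 21.0 in MIST1-null and 20.5 in wild-type zymogenic cells, against 103 in MIST1-null and 93.7 in wild-type neck cells. The difference was -2.29 in MIST1-null and -2.19 in wild-type mice. Markers of surface mucous cells went the other way. All 5 were higher in zymogenic than neck cells in both genotypes, with a median of 0.79 in MIST1-null and 0.46 in wild-type mice. The part of surface mucous cells in the values of Sytl2 was not tested. Both zymogenic readings of Sytl2 were under the detection level. With low values taken up to that level the differences were -1.23 in MIST1-null and -1.10 in wild-type mice. Sytl1 and Sytl4 (granuphilin), also Rab27 partners, were nearer to equal. Sytl1 read 63.4 in MIST1-null and 76.6 in wild-type zymogenic cells, against 59.7 in MIST1-null and 95.0 in wild-type neck cells. Sytl4 read 62.7 in MIST1-null and 54.0 in wild-type zymogenic cells, against 72.4 in MIST1-null and 59.2 in wild-type neck cells. Of the Rab27 genes, which are outside the families described, Rab27a read 32.9 in MIST1-null and 69.8 in wild-type zymogenic cells, against 83.1 in MIST1-null and 47.3 in wild-type neck cells. It was thus higher in zymogenic cells of wild-type mice, by 0.56, and lower in those of MIST1-null mice, by -1.34. Rab27b read 112 in MIST1-null and 132 in wild-type zymogenic cells, against 246 in MIST1-null and 223 in wild-type neck cells.

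Snap25 and Syt7 were higher in zymogenic cells of both genotypes. Snap25, the SNAP protein of neurons and endocrine cells, read 66.6 in MIST1-null and 67.7 in wild-type zymogenic cells, against 18.6 in MIST1-null and 24.8 in wild-type neck cells. Syt7 read 56.7 in MIST1-null and 57.6 in wild-type zymogenic cells, against 27.6 on both neck arrays. Both genes read higher on each zymogenic array than on either neck array, and how many of all genes do so was not counted. The differences were 1.84 in MIST1-null and 1.45 in wild-type mice for Snap25, and 1.04 in MIST1-null and 1.06 in wild-type mice for Syt7. All neck values were under the detection level. Taken up to it, the differences came under 2-fold, at 0.61 in MIST1-null and 0.63 in wild-type mice for Snap25 and 0.38 in MIST1-null and 0.40 in wild-type mice for Syt7.

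Markers of endocrine cells, whose granules use Snap25, followed the same pattern. In MIST1-null mice 13 of 14 detectable endocrine markers were higher in zymogenic than neck cells, with a median of 1.96, and in wild-type mice 15 of 15, with a median of 1.23. Their summed intensity was 13737 in MIST1-null and 9645 in wild-type zymogenic cells, against 4136 in MIST1-null and 6246 in wild-type neck cells. The granin Chgb read 1757 in MIST1-null and 1223 in wild-type zymogenic cells, against 98.0 in MIST1-null and 225 in wild-type neck cells. Of the enteric neuron and glia markers, 9 of 13 measured ones were detectable on some array, with summed intensities of 497 in MIST1-null and 601 in wild-type zymogenic cells and 387 in MIST1-null and 471 in wild-type neck cells. They had no common direction: 3 of 5 detectable ones were higher in zymogenic cells in MIST1-null and 5 of 8 in wild-type mice. Nefm was higher by 2.60 in MIST1-null and 2.71 in wild-type mice, and S100b by 0.98 in MIST1-null and 1.02 in wild-type mice. Among those lower were Gfap at -0.42 and Tubb3 at -0.17 in wild-type mice, and Prph at -0.29 and Ret at -0.28 in MIST1-null mice. Fibroblast and smooth muscle markers were higher in zymogenic cells for 11 of 11 detectable genes in both genotypes, with a median of 2.40 in MIST1-null and 1.00 in wild-type mice. Leukocyte markers were higher for 6 of 7 in MIST1-null and 8 of 9 in wild-type mice. Parietal cell markers went otherwise. In MIST1-null mice 5 of 13 detectable ones were higher in zymogenic cells, with a median of -0.14, and in wild-type mice 1 of 12, with a median of -1.07. The part of any of these cells in the values of Snap25, Syt7 and the other genes was not tested.

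**Figure D4:**
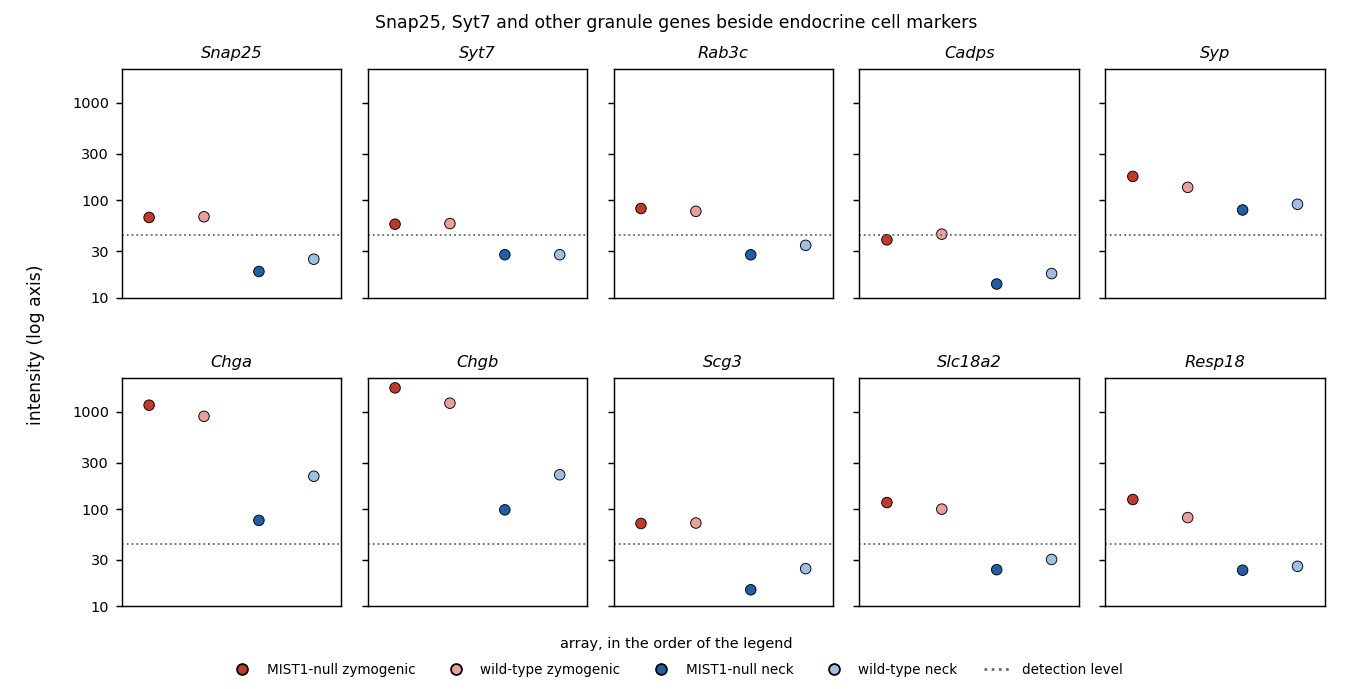
Intensity on a log axis of Snap25, Syt7, 3 further granule genes (top row) and 5 endocrine cell markers (bottom row), 1 point for each array in the order MIST1-null zymogenic, wild-type zymogenic, MIST1-null neck and wild-type neck, with the detection level dotted. These 10 genes were chosen after their values were seen, and in each the 2 zymogenic arrays lie above the 2 neck arrays. Other granule genes and endocrine markers, such as Rab27b and Gast, did not show this.

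Stx18, Stx16, Snap29 and Stxbp4 were past 2-fold between the cell types in wild-type mice and not in MIST1-null mice. Stx18, an ER syntaxin of retrograde transport, read 50.4 in MIST1-null and 82.1 in wild-type zymogenic cells, against 33.0 in MIST1-null and 23.6 in wild-type neck cells. Its difference was 0.61 in MIST1-null and 1.80 in wild-type mice. Both neck values lie under the detection level, and with low values raised to it the wild-type difference was 0.91. Stx16 differed by 0.14 in MIST1-null and 1.10 in wild-type mice. Snap29 read 134 in MIST1-null and 83.7 in wild-type zymogenic cells, against 118 in MIST1-null and 218 in wild-type neck cells, a difference of 0.18 in MIST1-null and -1.38 in wild-type mice. The Stxbp4 probe set used differed by 1.43 in wild-type mice, and the mean over both probe sets by 0.62. For none of these was the change between genotypes testable with 1 array in each group.

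In wild-type mice 5 of 51 detectable genes read at least 2-fold more in zymogenic than in neck cells, where 6.27% of all detectable genes did. A further 2 read at most 0.5 times as much, where 6.78% did. Together they make 13.7%, against 13.1% of 11778 genes. The median was 0.08, against 0.02 over all detectable genes. Just under 2-fold were Stx1a at 0.93, Exoc5 at -0.88, Exoc4 at 0.84 and Exoc8 at -0.82. Of the secretory SNAREs, Vamp8 was nearly level at 0.04, while Stx3 at -0.54 and Snap23 at -0.32 were lower in zymogenic cells.

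In MIST1-null mice the lowest gene of zymogenic against neck cells was Stxbp6, at -3.85, or -3.19 with low values at the detection level, beside -0.50 in wild-type mice. Snap25 and Syt7 were the 2 genes at least 2-fold higher among 48 detectable, where 4.90% of all detectable genes were, and Stxbp6 and Sytl2 the 2 at least 2-fold lower, where 4.80% were. Together they make 8.33%, against 9.70% of 11322 genes. Exoc6b differed by -0.93 and Stx2 by 0.84. Sytl5 differed by 0.87 on the probe set used and by 0.30 on its second one. Exocyst subunits had a median of -0.16, and VAMPs of 0.26 with 4 of 5 higher.

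**Figure D5:**
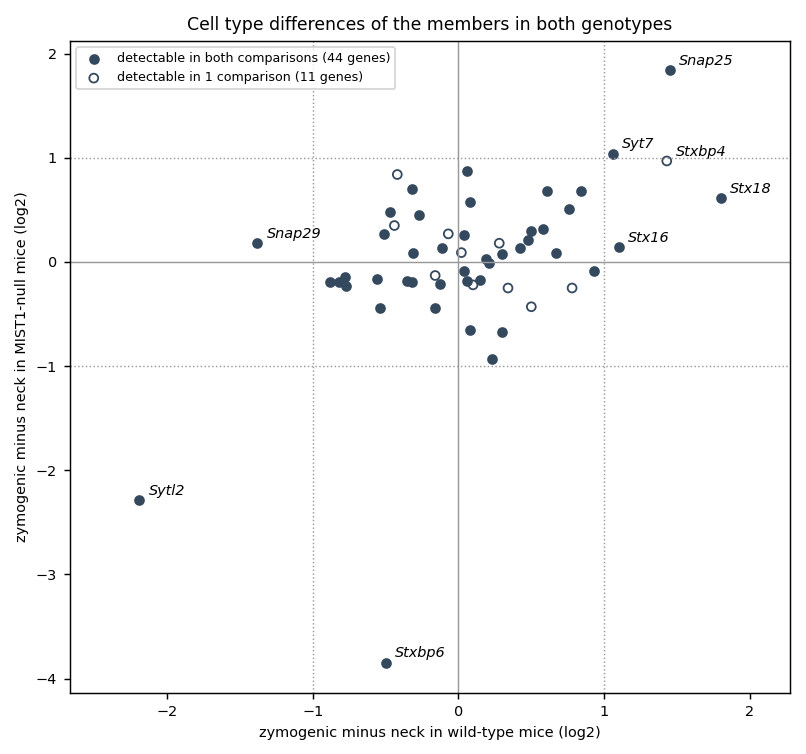
Zymogenic minus neck log2 difference of each gene in wild-type (x axis) and in MIST1-null mice (y axis), with filled points for the 44 genes detectable in both comparisons and open points for those detectable in 1. Dotted lines mark 2-fold. Snap25, Syt7 and Sytl2 are past it in both genotypes, and Stxbp6 in MIST1-null mice only.

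The cell type differences of both genotypes, which rest on separate arrays, had the same sign for 29 of 44 genes detectable in both, or 65.9%, against 60.6% of 10165 genes. Pearson's r was 0.51 across the 44 genes and 0.49 across all genes, as a description. Of the 55 detectable genes, 15 read lowest and 20 highest in wild-type zymogenic cells. The 15 included Stx2, Stx3, Stx4a, Snap23, Exoc1, Exoc3, Exoc5 and Exoc8, while the 20 included Stx1a, Cplx1, Cplx2, Snap25, Syt5 and Syt7. Over all 12935 detectable genes, 29.8% read lowest and 29.8% highest on that array, against 27.3% and 36.4% of the 55.

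Of 82 further genes of membrane fusion and granules outside these families, 81 were measured and 62 reached the detection level on some array. In MIST1-null against wild-type zymogenic cells none of 60 detectable ones was at least 2-fold higher and 2 were lower, beside 5.15% higher and 5.23% lower over all detectable genes. These were Bet1, a SNARE of ER to Golgi transport, at -1.73 with 88.9 in MIST1-null and 296 in wild-type cells, and Rab27a, at -1.08 with 32.9 in MIST1-null and 69.8 in wild-type cells. In neck cells Sycn, a zymogen granule membrane protein, was the 1 gene of 50 past 2-fold, at -1.91, with 29.1 in MIST1-null and 109 in wild-type cells, where 4.29% of all detectable genes passed it. The granule GTPase Rab3d was under the detection level on all 4 arrays.

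Between cell types, these further genes past 2-fold were 3 higher and 4 lower of 54 in MIST1-null zymogenic cells, and 4 higher and 3 lower of 59 in wild-type zymogenic cells. Over all detectable genes 9.70% passed 2-fold in MIST1-null and 13.1% in wild-type mice, so these shares are near the background. Rab3c, a GTPase of neuronal and endocrine granules, differed by 1.58 in MIST1-null and 1.16 in wild-type mice. Rab11b, of recycling endosomes, differed by -1.64 in MIST1-null and -2.30 in wild-type mice. In wild-type mice Napa, an adaptor in SNARE disassembly, was also higher, at 1.52, as were Cadps, a priming factor of dense-core granules, at 1.34 and Bet1 at 1.29, while Sycn was lower at -1.64 and Rab8a at -1.09. In MIST1-null mice Rims2 at 1.53 and Syp at 1.15 were higher, and Rab27a at -1.34, Unc13a at -1.16 and Rab27b at -1.13 were lower. Rims2 read 44.7 in MIST1-null zymogenic and 15.5 in MIST1-null neck cells. Cadps read 44.9 in wild-type zymogenic and 17.7 in wild-type neck cells. Each thus barely reached the detection level of 43.7 on its higher array. The lower reading was also under that level for Rab3c and Rab11b in both genotypes. The same held for Napa and Sycn in wild-type mice and for Rab27a in MIST1-null mice, so the size of these differences is not firm. The disassembly enzyme Nsf differed by 0.30 at most in any of the 4 comparisons.

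On the chromosomes, the 69 genes were spread over 20, and Vamp5 and Vamp8 on chromosome 6 were the 1 pair adjacent among protein-coding genes of the RefSeq table. Vamp5 read 49.1 in MIST1-null and 39.0 in wild-type zymogenic cells, and 30.2 in MIST1-null and 48.7 in wild-type neck cells. Its differences between genotypes were 0.33 in zymogenic and -0.69 in neck cells, and those of Vamp8 were -0.08 and -0.30, so these neighbours had opposite signs in zymogenic cells.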

How the data were processed

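The authors deposited linear intensity values for each probe set, compared in dChip per the series design text. Background correction, probe summary and scaling between arrays were not stated in the labels, nor was signal over background, so precision is limited by there being 1 array in each group. Genes came from GEO's platform annotation, and all 69 symbols matched RefSeq (GRCm38.p6). Of 35512 probe sets, 21789 had 1 gene. The probe set with the highest mean log2 value stood for a gene, which decided 2 of the 69. Values were log2 with a floor at 1, which none of the 69 genes touched, and differences were described and counted at 2-fold without a test. Alternatives were quantile, cyclic loess (limma 3.58.1) and median scaling, a pseudocount of 32, no filter, a filter at the 75th percentile, the mean over probe sets and low values raised to the detection level, the last added after seeing the data. Scripts were tested on simulated data.

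Genes named were those past 2-fold while detectable and a fixed list of granule genes (Vamp3, Vamp8, Stx2, Stx3, Stx4a, Stx7, Stx17, Snap23, Snap25, Snap29, Stxbp2, Stxbp3, Stxbp6, Syt1, Syt7, Sytl1, Sytl2, Sytl4, Cplx1, Cplx2 and Exoc1 to Exoc8, beside Vamp2, which was not analysed here), with others as range ends or examples of a role, chosen with values seen. The genes, lists and rules were chosen with earlier results of these data known.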

Additional observations from a re-analysis of the deposited data

Results flagged for a closer look

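For 5 genes the genotype difference had opposite signs in the 2 cell types, detectable in both, with at least 2-fold between them. Subtracting the neck difference from the zymogenic one gave -3.35 for Stxbp6, 1.56 for Snap29, -1.15 for Exoc6b, -1.02 for Stx1a and 1.02 for Vamp5. For Stxbp6 the neck difference was close to 0, at 0.05, and -0.04 with quantile and 0.0 with cyclic loess scaling, so its opposite sign is not firm. With 1 array in each group the difference between cell types was not tested. The threshold for this list was chosen with the values known.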

How the results depend on the processing

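No paired analysis was possible because each group was 1 array, and for the same reason no replicate could be left out. None of the 19 differences past 2-fold changed sign under the 8 alternatives. Those of Stxbp6 (both comparisons), Sytl2 (both) and Snap29 stayed past 2-fold in all 8. Quantile, cyclic loess and median scaling each kept 18 of the 19, losing Syt7 in MIST1-null mice. With the pseudocount of 32, 7 of 19 stayed. The genes past 2-fold then numbered 2 by genotype in zymogenic cells, 0 in neck cells, 2 by cell type in MIST1-null and 3 in wild-type mice. With low values raised to the detection level, 12 stayed, with 2 genes by cell type in MIST1-null and 4 in wild-type mice. The filter at the 75th percentile left 2 genes by cell type in MIST1-null mice, and the cell type medians were then -0.17 in MIST1-null and -0.04 in wild-type mice. This filter tests fewer genes. The other totals of genes past 2-fold stayed within 1.5 times and the other medians within 0.1. By direction, the 2 genes higher by cell type in MIST1-null mice were 1 under the 3 scalings and 4 without a filter. They were 0 with the pseudocount, the 75th percentile filter and low values raised. The 5 higher by cell type in wild-type mice were 1, 3 and 2 under these settings, in that order. The 3 higher by genotype in zymogenic cells were 1 with the 75th percentile filter and with low values raised. They were 0 with the pseudocount and 5 without a filter. The mean over probe sets took both Stxbp4 differences under 2-fold. Without a filter, Stxbp4 passed 2-fold in neck cells at -1.41, under the detection level. None of the 97 further differences of the named genes that were detectable in the main setting passed 2-fold under any alternative. Of the 19, 13 have the lower array under the detection level, so their size is not firm.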
